A study of Mus musculus with 24 samples.

Results

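The fibroblastic reticular cell (FRC) libraries of the series fell into 2 sets by library number, the first number of each sample label, and the sets were compared for genes of cell handling, stress and energy. FRCs are the stromal fibroblasts that build the scaffold of lymphoid tissue, here the mouse Peyer's patches of the gut wall. Of the 24 RNA-seq libraries, 14 were FRC libraries. Libraries 1 to 9 held 6 of them, numbers 1, 2 and 3 from mice given PEG and numbers 4, 5 and 6 from unperturbed control mice. Libraries 10 to 24 held the other 8, numbers 10, 11, 18 and 19 from PEG mice and 12, 13, 20 and 21 from control mice. The PEG mice drank 10% (w/v) polyethylene glycol ad libitum for 3 days, which the study used to lower fluid flow, and 1000 sorted cells of 1 mouse made each library. The remaining 10 libraries were sorted endothelial cells of high endothelial venules (HEV). Strain, age and sex are not given in the labels used here, and no label says whether the library number stands for a day, a sort, a plate or a sequencing run. The Nextera index pairs recur among the numbers, so that libraries 2, 10 and 18 carry the same pair. Any cause tied to the library number cannot be told apart from any other cause tied to it, and PEG and control mice stood in both sets.

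Immediate early genes encode transcription factors and feedback regulators whose transcription rises within minutes of a stimulus, and enzymatic tissue digestion and cell sorting are known to induce them. Heat shock chaperones are induced by HSF1 when proteins unfold, the endoplasmic reticulum has its own chaperone response, and NF-kappaB drives inflammatory genes together with its own inhibitors. The respiratory chain and ATP synthase are built from nuclear and mitochondrially encoded subunits and make most ATP of a resting cell, while glycolysis makes ATP from glucose directly.

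Promoters of members that differed between the sets are shown to give the letters searched for the factors behind these responses. Each is the 250 bases before the RefSeq transcript start (GRCm38.p6), written 5′ to 3′ along the gene, with the matched letters in capitals. In the first pair the capitals mark the cyclic AMP response element TGACGTCA, a palindrome, in 2 immediate early genes, Btg2 at chr1:134079156-134079405, minus strand and Dusp1 at chr17:26508473-26508722, minus strand.
Btg2: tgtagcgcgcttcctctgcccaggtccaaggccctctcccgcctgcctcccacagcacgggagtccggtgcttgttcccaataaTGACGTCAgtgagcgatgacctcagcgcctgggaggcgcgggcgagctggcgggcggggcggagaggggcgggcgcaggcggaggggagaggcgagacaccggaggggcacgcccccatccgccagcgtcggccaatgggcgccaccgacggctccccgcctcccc
Dusp1: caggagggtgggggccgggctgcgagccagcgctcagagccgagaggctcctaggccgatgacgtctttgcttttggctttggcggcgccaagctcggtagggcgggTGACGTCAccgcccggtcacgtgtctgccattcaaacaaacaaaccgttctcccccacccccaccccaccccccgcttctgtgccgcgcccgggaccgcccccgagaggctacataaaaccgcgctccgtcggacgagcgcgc
In the second pair the capitals mark a kappaB site, searched as GGGA and TTTCC with 1 base between them on either strand, in Nfkbia at chr12:55492648-55492897, minus strand, and Cxcl1 at chr5:90890995-90891244, plus strand.
Nfkbia: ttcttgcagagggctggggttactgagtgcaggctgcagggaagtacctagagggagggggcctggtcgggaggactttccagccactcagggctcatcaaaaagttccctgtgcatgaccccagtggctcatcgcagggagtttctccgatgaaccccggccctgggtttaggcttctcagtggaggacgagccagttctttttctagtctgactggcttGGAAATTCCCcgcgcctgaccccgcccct
Cxcl1: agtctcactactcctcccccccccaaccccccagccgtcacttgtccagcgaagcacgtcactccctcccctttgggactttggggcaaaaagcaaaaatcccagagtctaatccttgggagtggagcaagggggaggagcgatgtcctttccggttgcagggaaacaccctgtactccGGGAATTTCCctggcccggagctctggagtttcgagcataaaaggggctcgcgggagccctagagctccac
In the last pair the capitals mark overlapping heat shock elements, searched as GAA, TTC and GAA with 2 bases between neighbours on either strand, in Hspe1 at chr1:55087898-55088147, plus strand, and an NRF1 site, searched as the palindrome of GCGCA and its reverse complement, in Cox6a1 at chr5:115348959-115349208, minus strand.
Hspe1: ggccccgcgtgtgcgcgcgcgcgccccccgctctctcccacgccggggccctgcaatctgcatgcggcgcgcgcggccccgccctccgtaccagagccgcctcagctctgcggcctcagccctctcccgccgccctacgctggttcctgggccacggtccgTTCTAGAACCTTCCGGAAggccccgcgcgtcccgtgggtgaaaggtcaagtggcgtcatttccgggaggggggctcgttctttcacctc
Cox6a1: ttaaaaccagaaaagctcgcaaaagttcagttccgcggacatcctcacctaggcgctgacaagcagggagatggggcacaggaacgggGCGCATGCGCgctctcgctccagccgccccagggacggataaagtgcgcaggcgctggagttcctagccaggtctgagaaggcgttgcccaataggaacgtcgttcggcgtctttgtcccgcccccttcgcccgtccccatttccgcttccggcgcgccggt
The cyclic AMP response element stood in 4 of the 30 immediate early genes with a window (13.3%), Btg2, Dusp1, Ppp1r15a and Maff, and in 2.78% of all 12397 genes tested that have one. The kappaB letters stood in 6 of 19 NF-kappaB genes (31.6%), of which Nfkbia and Cxcl1 differed between the sets and Csf1, Cxcl2, Il6 and Nfkb2 did not pass the test, and in 0.484% of all genes. The heat shock letters stood in 3 of 21 chaperone genes (14.3%), Hspe1, Hspd1 and Dnajb6, in none of the 6 lower chaperone genes with a window, and in 0.492% of all genes. The NRF1 letters stood in 4 of 65 respiratory genes (6.15%), 2 of them among the 38 higher genes with a window, and in 1.6% of all genes. A match describes these letters only. Hspa8 and Ier2 had no window in the table.

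Across the series the processed files gave read counts for 36528 gene models. The 14 FRC libraries held 12416032 to 21710946 reads in genes, and no difference between the sets passed for that total, the share of mitochondrially encoded reads, or the 2 base qualities and the clipped share given in the labels (exact permutation within treatment, two-sided, adjusted over 7 measures, adjusted p = 0.438 to 0.867). CPM are read counts scaled to a library total of 1000000. More genes reached 1 CPM in libraries 10 to 24, with 14598 ± 310.2 (SD, n = 8) against 13545 ± 342 (n = 6), and the ranges did not overlap (exact permutation, adjusted p = 0.00571, raw p = 0.000816, the smallest that the arrangements within treatment can give). FRC markers were high in every library, including Pdpn at 183 CPM or more, Pdgfra at 355 CPM or more and Col1a2 at 2095 CPM or more. Yet 7 of 20 FRC markers (35.0%) were lower in libraries 10 to 24 and none higher, among them Col1a1 and Col3a1. Pdgfra (-0.45, edgeR adjusted p = 0.0355) and Cxcl12 (-0.73, edgeR adjusted p = 0.00171) also passed as lower. Over all genes tested 5.61% were lower and 5.33% higher, which is the background for every marker list here. Markers of other cells also varied. The intestinal epithelium list averaged 0.966 to 4.89 log2(CPM + 1) in libraries 1 to 9 and 1.39 to 7.85 in libraries 10 to 24, and its summed level ran from 95.5 to 1208 CPM and from 101 to 19236 CPM, with libraries 18, 19 and 20 highest. All 23 epithelial genes had a positive fold change and none passed the test. Ptprc, the pan-leukocyte marker, reached at most 0.108 CPM in libraries 1 to 9 and 5.98 CPM in libraries 10 to 24, and it passed as higher (edgeR adjusted p = 0.015). Cd3e of T cells stood at 0 in all 6 libraries 1 to 9 and in 7 of 8 libraries 10 to 24. In the myeloid list 3 of 9 members were lower, among them Itgam, and its summed level ran from 176 to 278 CPM against 41.9 to 317 CPM. In the erythrocyte list 3 of 4 members were lower and 1 higher, and the sum was at most 19.2 CPM against 1.79 CPM. The cell cycle list had 3 of 19 lower and 1 higher. In the smooth muscle and pericyte list 1 of 12 was higher, Myh11 at 0.59 (edgeR adjusted p = 0.0146), and it did not pass without libraries 18, 19 and 20. None of the B cell, plasma cell, T cell, endothelial or glial genes tested passed. Of the sex-linked genes, Ddx3y of the Y chromosome stood at 64.4 CPM or more in every FRC library and Xist at 1.60 CPM or less. Ddx3y passed as lower in libraries 10 to 24 (-0.88 ± 0.15, edgeR adjusted p = 0.000851). The part of these cells in the results below was not tested beyond the values given below without libraries 18, 19 and 20 and with the epithelial list's level as a covariate. Fewer cells of a type and less RNA per cell cannot be told apart in sorted bulk libraries. No label calls the libraries separate cohorts, and p-values measure the spread between mice within a set.

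Across all genes, 1918 of 17534 tested (10.9%) differed between the sets in edgeR's quasi-likelihood test at an adjusted p under 0.05 with treatment in the model. Libraries 10 to 24 were higher in 935 (5.33%) and lower in 983 (5.61%). In 430 genes (2.45%) every library of 10 to 24 lay above every library of 1 to 9, and in 331 (1.89%) every one lay below. These shares are the background for the gene lists that follow. The lists with the largest shares were the nuclear respiratory chain and ATP synthase lists on the higher side and the immediate early, NF-kappaB and nuclear long RNA lists on the lower side. All fold changes are log2 values of libraries 10 to 24 minus libraries 1 to 9, with their standard error (SE).

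**Figure D1:**
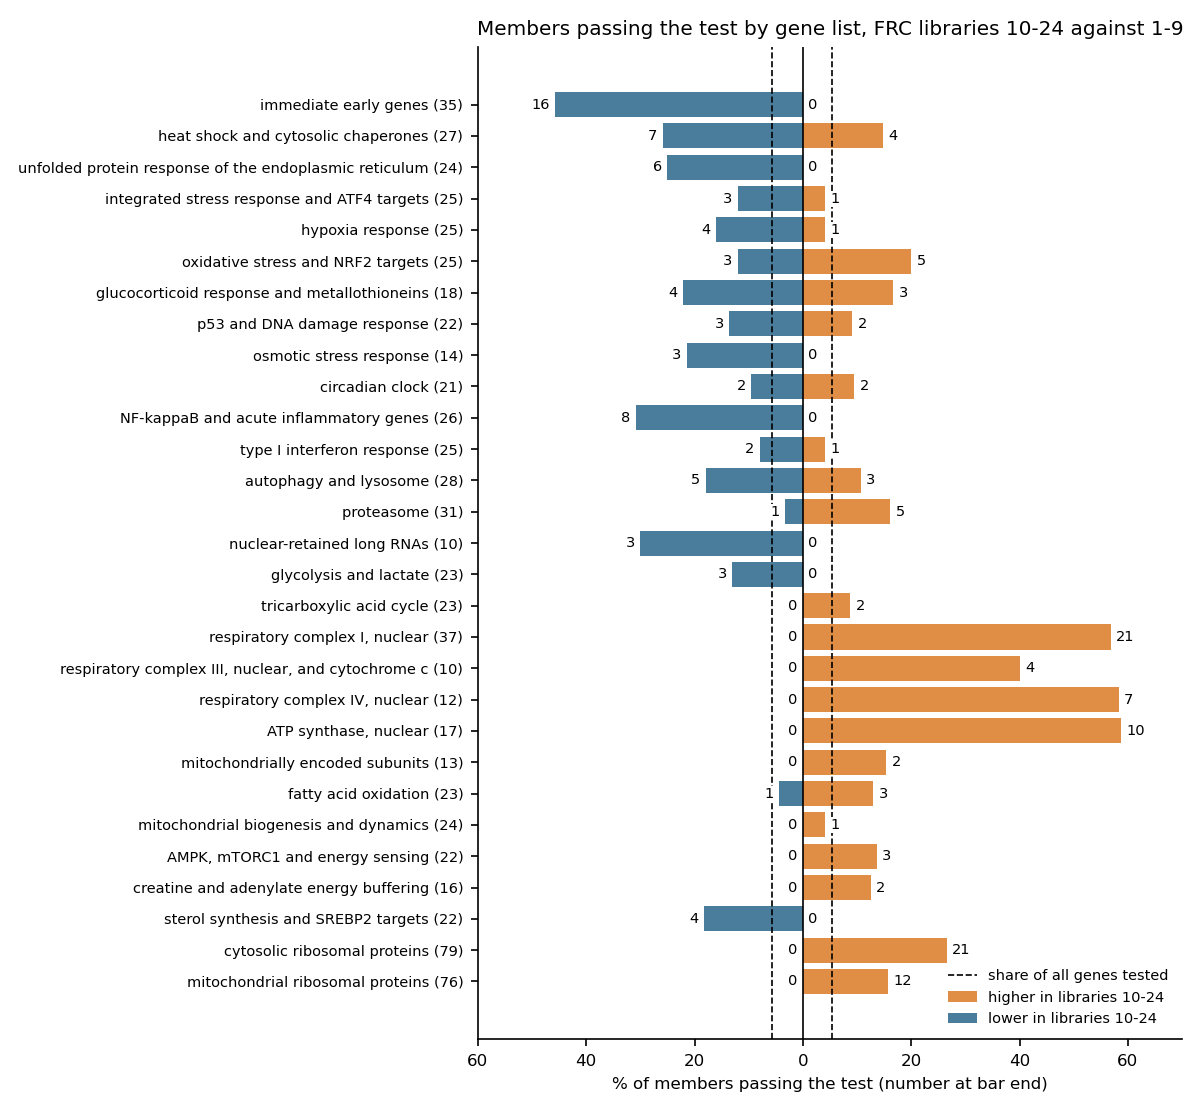
Share of the members of each of 29 gene lists that passed the test, to the right for members higher in FRC libraries 10 to 24 and to the left for members lower, with the number of passing members at the bar end and the number tested in parentheses. Dashed lines mark the shares over all genes tested, 5.33% higher and 5.61% lower.

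Immediate early genes were lower in libraries 10 to 24. Of 35 members, 16 passed as lower and none as higher, against 5.61% of all genes lower, and the median of all 35 was -0.77 against 0.07 over all genes. In 11 members every library 10 to 24 lay below every library 1 to 9. Btg2, an antiproliferative transcriptional cofactor, measured a median of 3827 CPM (range 2564 to 4199) in libraries 1 to 9 and a median of 1093 CPM (range 885 to 1408) in libraries 10 to 24. Its lowest library of 1 to 9, number 1, still lay well above the highest of the other set, number 13. Its change was -1.83 ± 0.12 (edgeR adjusted p = 1.87e-07). Dusp1, a phosphatase that switches off MAP kinases, went from a median of 1998 CPM (range 1131 to 2709.6) to a median of 621 CPM (range 484 to 798), also without overlap, a change of -1.75 ± 0.13 (edgeR adjusted p = 6.11e-07). Socs3, a feedback inhibitor of cytokine signalling, fell from a median of 1441 CPM (range 1254 to 1650.0) to a median of 379 CPM (range 255 to 723) (-1.79 ± 0.19, edgeR adjusted p = 1.48e-05). Egr2, a zinc finger factor, fell from a median of 147 CPM (range 77.3 to 217) to a median of 35.9 CPM (range 24.5 to 61.6) (-1.93 ± 0.25, edgeR adjusted p = 0.000102).

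The classical AP-1 members had smaller fold changes. Fos had a median of 2942 CPM (range 2582 to 3207) and a median of 2192 CPM (range 1631 to 2432), with no overlap of the sets and a change of -0.49 ± 0.10 (edgeR adjusted p = 0.00433). Jun measured a median of 2657 CPM (range 2425 to 3324) and a median of 2032 CPM (range 1294 to 2645), overlapping, with a change of -0.52 ± 0.15 (edgeR adjusted p = 0.0376), a call lost in 9 of the 14 fits that left 1 library out (up to 0.0731). Atf3, a stress-induced repressor, changed by -0.82 ± 0.15, with library 20 inside the range of libraries 1 to 9 (edgeR adjusted p = 0.00217). Junb, Fosb, Nr4a1, Ier2, Zfp36, Klf6, Myc, Ppp1r15a and Ccn1 also passed as lower, between -1.53 and -0.73. Egr1, another abundant zinc finger factor of the list, did not pass, at a median of 2071 CPM (range 1779 to 2768) against a median of 2301 CPM (range 1545 to 3154) and 0.03 ± 0.16 (edgeR adjusted p = 0.941). Within the PEG libraries its value was -0.40 and within the control libraries 0.48, neither passing. The difference of its set change between PEG and control mice did not pass over all genes (edgeR adjusted p = 0.37). Ier5, Srf, Dusp2 and Ier3 had positive values between 0.31 and 0.71 and did not pass. No member passed between libraries 18 to 21 and 10 to 13, where 2 of 17746 genes did (0.0113%).

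**Figure D2:**
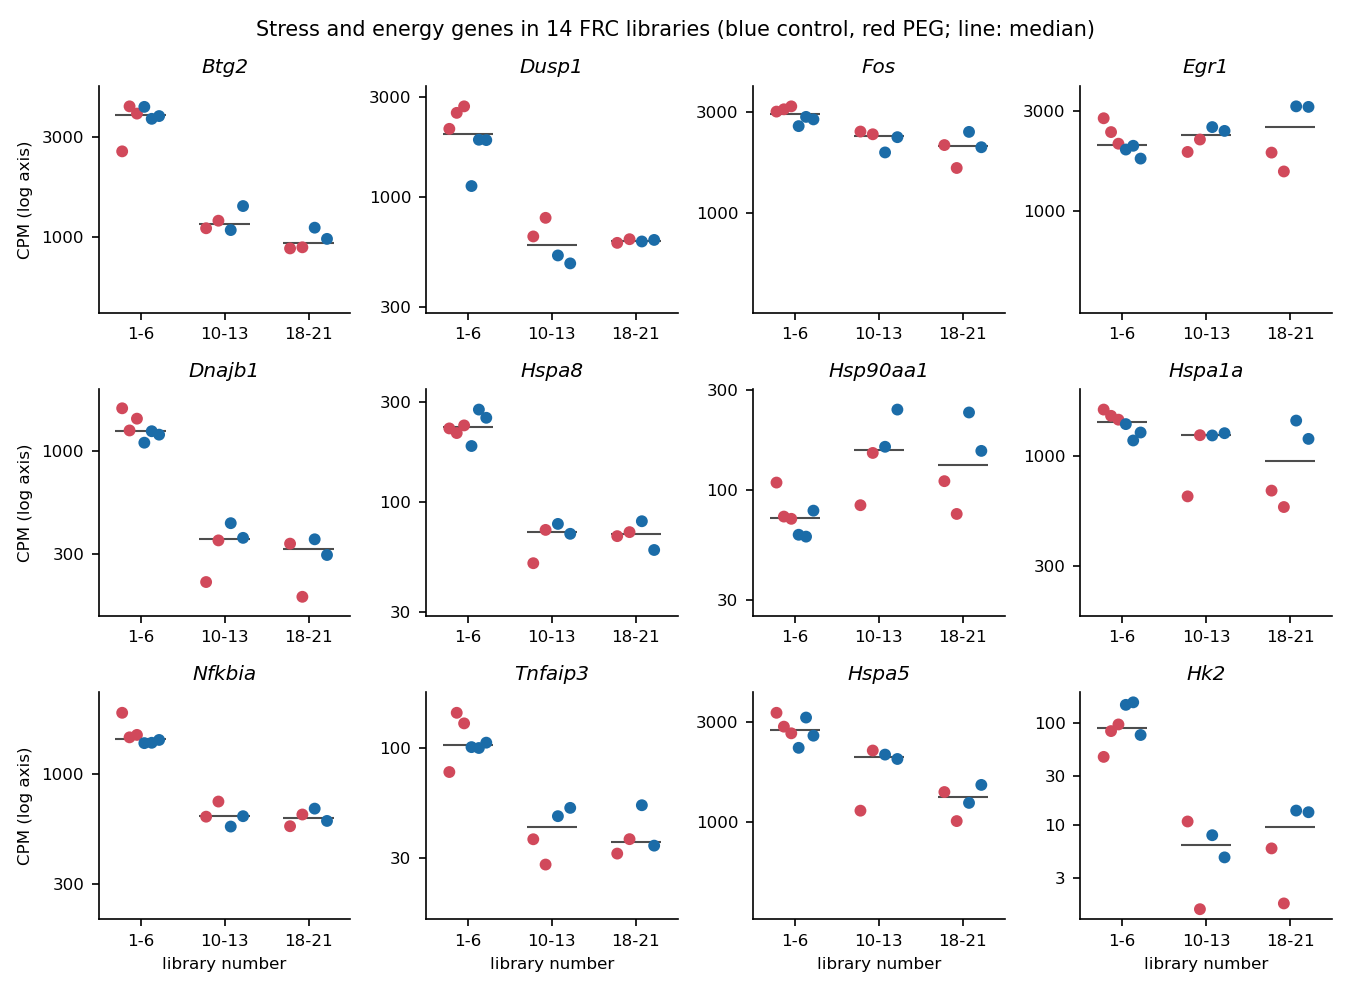
CPM on a log axis of 12 genes in each of 14 FRC libraries, grouped as libraries 1-6, 10-13 and 18-21, with control mice in blue, PEG mice in red and a line at each group's median. Btg2, Dusp1, Dnajb1, Hspa8, Nfkbia, Tnfaip3 and Hk2 show libraries 1-6 wholly above the rest, Egr1 and Hspa1a overlap, and the median of Hsp90aa1 is higher in libraries 10-13 and 18-21.

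Heat shock genes split. Of 27 chaperone genes, 7 were lower and 4 higher in libraries 10 to 24, and the median was -0.24. The lower group held the constitutive HSP70 Hspa8, its J-domain partners Dnajb1, Dnaja1 and Dnajb4, the nucleotide exchange factors Hsph1 and Bag3, and the small heat shock protein Hspb8. Dnajb1 had a median of 1261 CPM (range 1098 to 1642) in libraries 1 to 9 and a median of 343 CPM (range 181 to 428) in libraries 10 to 24. Every library of the second set lay below every library of the first, and the change was -2.13 ± 0.18 (edgeR adjusted p = 1.2e-06). Hspa8, which has many processed pseudogenes, went from a median of 227 CPM (range 184 to 275) to a median of 71.0 CPM (range 51.0 to 80.8), likewise without overlap (-1.79 ± 0.14, edgeR adjusted p = 7.24e-07). Dnaja1 and Hspb8 changed by -1.65 ± 0.15 and -1.74 ± 0.19, again with separate ranges. The higher group held both cytosolic HSP90 genes, the mitochondrial co-chaperonin Hspe1 and the lens crystallin Cryab. Hsp90ab1 measured a median of 1744 CPM (range 1648 to 1817) and a median of 3175 CPM (range 1475 to 3862) (0.60 ± 0.17, edgeR adjusted p = 0.0328). Its 4 control libraries of 10 to 24 stood at 3508, 3685, 3862 and 3754 CPM and its PEG libraries at 1532, 2842, 2313 and 1475 CPM, so the control libraries were all above the PEG libraries. Hsp90aa1 changed by 0.86 ± 0.25 (edgeR adjusted p = 0.0347) and its control libraries of 10 to 24 also lay all above the PEG libraries. The calls of Hsp90aa1 and Hsp90ab1 were each lost in 9 of the 14 fits that left 1 library out (edgeR adjusted p up to 0.0987 and 0.0923), those of Hspe1 in 10 and Cryab in 11. With the transcript length trend removed, as described below, Hspe1 was at 0.05 and Cryab at -0.03 and neither passed (edgeR adjusted p = 0.914 and 0.927), while both HSP90 genes passed. With only the PEG libraries, neither HSP90 gene passed (edgeR adjusted p = 0.803 and 0.775). The difference of the set change between PEG and control mice did not pass for either (edgeR adjusted p = 0.426 and 0.424). PEG libraries against control libraries were not tested here. The inducible HSP70 genes Hspa1a and Hspa1b did not pass, at -0.56 ± 0.19 and -0.29 ± 0.24. Their coding sequences are nearly identical, so the division of reads between them is uncertain. Hspd1, whose gene shares a bidirectional promoter with Hspe1, was at -0.12 and did not pass.

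Several genes of the endoplasmic reticulum response were lower in libraries 10 to 24. Of 24 members 6 were lower and none higher, with a median of -0.16. Hspa5, the luminal HSP70 that senses unfolded proteins, had a median of 2751 CPM (range 2260.4 to 3319) in libraries 1 to 9 against a median of 1449 CPM (range 1012 to 2194) in libraries 10 to 24. The ranges did not touch and the change was -0.89 ± 0.18 (edgeR adjusted p = 0.00336). Dnajb9, its J-domain partner, changed by -1.37 ± 0.15, Herpud1 of the degradation complex by -0.89 ± 0.16 and the chaperone Hyou1 by -2.17 ± 0.37, each with every library 10 to 24 below every library 1 to 9. Xbp1 and Pdia4 passed at -0.54 and -0.56. In the list of the integrated stress response, 3 of 25 members were lower and 1 higher. Atf4, its central transcription factor, measured a median of 516 CPM (range 484 to 555) and a median of 269 CPM (range 237 to 344) without overlap (-0.95 ± 0.11, edgeR adjusted p = 3.65e-05). Its target Ddit3 did not pass, at -0.07 ± 0.14 (edgeR adjusted p = 0.812). The tRNA synthetases Aars and Gars were lower by 1.00 and 0.79 on the log2 scale and Sars was higher at 0.73. The call of Sars was lost in 11 of the 14 fits that left 1 library out (edgeR adjusted p up to 0.111). That of Gars was lost in 2 (edgeR adjusted p up to 0.0588). Without the libraries of highest epithelial level, 1 member of this list was lower and none higher. The counts were the same with the epithelial list's level as a covariate. At least 1 of Aars and Gars therefore did not pass in each of those fits. With the transcript length trend removed, as described below, 5 members were lower and 1 higher.

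NF-kappaB genes were also lower. Of 26 members 8 were lower and none higher, and the median was -0.50. Nfkbia, the inhibitor that NF-kappaB itself induces, had a median of 1472 CPM (range 1401 to 1954) in libraries 1 to 9 and a median of 627 CPM (range 561 to 738) in libraries 10 to 24. The sets were fully separate (-1.34 ± 0.10, edgeR adjusted p = 5.09e-07). Tnfaip3, the ubiquitin-editing inhibitor A20, fell from a median of 103 CPM (range 76.6 to 147) to a median of 36.7 CPM (range 27.8 to 53.3) (-1.54 ± 0.20, edgeR adjusted p = 0.000102). Ptgs2, the inducible cyclooxygenase, fell from a median of 112 CPM (range 53.8 to 165) to a median of 19.0 CPM (range 11.4 to 52.1) (-2.36 ± 0.31, edgeR adjusted p = 0.000129). Icam1, an adhesion molecule of stroma, was lower at -1.05 ± 0.15, and Rel, Relb, Birc3 and Cxcl1 passed between -1.64 and -0.87. The cytokine genes Il6 and Ccl2 did not pass, at 0.59 and -0.35.

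The lower counts were recomputed without the libraries of high epithelial level and within treatment. Without libraries 18, 19 and 20, 14 of 35 immediate early genes, 7 of 27 chaperone genes and 7 of 26 NF-kappaB genes were lower. With the epithelial list's level as a covariate the counts were 11, 5 and 5. In PEG libraries alone, 11, 4 and 5 members were lower, where 0.667% of all genes were lower. In control libraries alone the counts were 9, 7 and 5, where 3.73% of all genes were lower. The endoplasmic reticulum list, with 6 of 24 lower, had 4 lower without libraries 18, 19 and 20 and Sdf2l1 higher, 4 lower with the covariate and Sdf2l1 and Pdia6 higher, 4 lower in control libraries and 1, Dnajb9, in PEG libraries. No member of these lists differed in its set change between PEG and control mice at an adjusted p under 0.05 in edgeR, where 1 gene of 17534 did so (0.0057%) and 1544 had an unadjusted p under 0.05.

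Other stress lists gave few and mixed calls. In the hypoxia list 4 of 25 members were lower and 1 higher. Kdm3a, a histone demethylase, was lower at -1.67 ± 0.25 and Stc2, a secreted glycoprotein, was higher at 1.26 ± 0.21, while Vegfa stood at 0.25 ± 0.51 and Slc2a1 at 0.82 ± 0.62 without passing. In the oxidative stress list 5 of 25 were higher and 3 lower. Gstm1, a glutathione transferase, measured a median of 319 CPM (range 246 to 375) and a median of 616 CPM (range 463 to 699.8), all above (0.88 ± 0.10, edgeR adjusted p = 3.56e-05). Gpx1 was higher at 0.91 ± 0.16, the ferritin heavy chain Fth1 at 0.47 ± 0.10 and Sod1 at 0.72 ± 0.17. The ferritin light chain Ftl1 was lower at -0.45 ± 0.10 and Hmox1 did not pass. With the transcript length trend removed, as described below, 2 members of this list were higher and 2 lower. Sod1 was then at -0.017 and did not pass (edgeR adjusted p = 0.975). Without the libraries of high epithelial level 3 were higher and 1 lower, and with the epithelial covariate 3 were higher and 2 lower. In the glucocorticoid and metallothionein list 3 of 18 were higher and 4 lower. Only 1 was higher without the libraries of high epithelial level, with the epithelial covariate or with the transcript length trend removed. At least 1 of Mt1 and Mt2 therefore did not pass in each of those fits. In control libraries alone 3 members were higher, and in PEG libraries alone none was. The metal-binding proteins Mt1 and Mt2 were higher, Mt1 going from a median of 231 CPM (range 132 to 295) to a median of 402 CPM (range 289 to 834) with overlap (1.04 ± 0.27, edgeR adjusted p = 0.0194). The call of Mt2 was lost in 6 of the 14 fits that left 1 library out and that of Mt1 in 2. Fkbp5, a co-chaperone induced by glucocorticoids, was lower at -1.85 ± 0.34 (edgeR adjusted p = 0.00169). Its control libraries separated fully, from 139 to 204 CPM against 17.3 to 30.2 CPM, while the PEG libraries overlapped, from 68.4 to 127 CPM against 52.3 to 73.8 CPM. The difference of its set change between PEG and control mice did not pass over all genes (2.13, edgeR adjusted p = 0.217). Tsc22d3, another glucocorticoid target, stood at -0.14 ± 0.18 and did not pass.

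In the p53 list 3 of 22 members were lower and 2 higher, with Plk2 and Plk3 lower, Bax higher and Cdkn1a at -0.11 ± 0.24 not passing. The call of Bax was lost in 12 of the 14 fits that left 1 library out (edgeR adjusted p up to 0.111). Plk2, a kinase of the stress response, fell from a median of 345 CPM (range 286 to 386) to a median of 121 CPM (range 74.2 to 169) without overlap (-1.56 ± 0.13, edgeR adjusted p = 1.37e-06). Of 14 osmotic stress genes 3 were lower and none higher, the inositol transporter Slc5a3 at -1.64 ± 0.28, the amino acid transporter Slc38a2 at -1.15 ± 0.17 and the kinase Wnk1 at -0.63 ± 0.19, a call lost in 11 of the 14 fits that left 1 library out (edgeR adjusted p up to 0.129). In the type I interferon list Ifit2 was lower and Bst2 was higher, and Ifit2 did not pass without libraries 18, 19 and 20 or with the epithelial covariate. In the autophagy and lysosome list 3 of 28 were higher and 5 lower, and in the proteasome list 5 of 31 were higher and 1, Psmd8, lower. With the transcript length trend removed, as described below, no proteasome gene was higher and 4 were lower. Of 10 nuclear-retained long RNAs 3 were lower, Tug1 at -1.78 ± 0.24, Norad and Meg3, while Malat1 (0.02 ± 0.15) and Neat1 (0.48 ± 0.17) did not pass. The call of Norad was lost in 9 of the 14 fits that left 1 library out and that of Meg3 in 1.

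The circadian list had 2 of 21 members higher, Dbp and Nr1d1, and 2 lower, Rora and Bhlhe40. Without libraries 18, 19 and 20, and with the epithelial covariate, none was higher and only Bhlhe40 was lower. Dbp, a clock output factor, measured a median of 5.93 CPM (range 4.43 to 19.8) in libraries 1 to 9 and a median of 26.4 CPM (range 15.9 to 104) in libraries 10 to 24 (2.16 ± 0.53, edgeR adjusted p = 0.0132). Nr1d1, the repressor REV-ERBα, changed by 1.29 ± 0.39 (edgeR adjusted p = 0.0422), a call lost in 10 of the 14 fits that left 1 library out (up to 0.0935). Their highest values came from libraries 18 to 21, where Nr1d1 ran from 92.1 to 169.9 CPM against 44.5 to 72.7 CPM in libraries 10 to 13. Arntl, the activator that Nr1d1 represses, ran from 3.33 to 27.1 CPM in libraries 18 to 21 and from 36.6 to 58.6 CPM in libraries 10 to 13. For both genes the ranges of these groups did not overlap, yet neither difference passed over all genes (edgeR adjusted p = 0.286 and 0.626), in a comparison with 1312 genes at an unadjusted p under 0.05 and 308 called by DESeq2.

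Energy lists differed in direction. They also differed in transcript length, with a median of 2848 bases for glycolysis genes and 870 for the nuclear respiratory genes described below. In glycolysis 3 of 23 genes were lower and none higher, with a median of -0.34. Hk2, the inducible hexokinase that starts glycolysis, measured a median of 89.9 CPM (range 46.5 to 159) in libraries 1 to 9 and a median of 6.93 CPM (range 1.50 to 13.9) in libraries 10 to 24. No library overlapped and the change of -3.85 ± 0.43 (edgeR adjusted p = 3.3e-05) was the largest among the energy genes that passed with a negative sign. Ldha, which makes lactate, fell from a median of 834 CPM (range 673 to 986) to a median of 485 CPM (range 244 to 607) (-0.92 ± 0.14, edgeR adjusted p = 0.000325), and the isomerase Gpi1 was at -0.69 ± 0.20, a call lost in 7 of the 14 fits that left 1 library out. Sterol synthesis genes had 4 of 22 lower, none higher and a median of -0.55. Insig1, the sterol sensor of the endoplasmic reticulum, was at -1.29 ± 0.18, the synthase Hmgcs1 at -1.12 ± 0.21, the demethylase Cyp51 at -1.43 ± 0.31 and Sc5d at -0.98 ± 0.22. Of these calls only Insig1 and Hmgcs1 passed without libraries 18, 19 and 20 or with the epithelial covariate, and none passed in PEG libraries alone. In the tricarboxylic acid cycle 2 of 23 were higher, Mdh1 going from a median of 145 CPM (range 75.7 to 184) to a median of 558 CPM (range 351 to 671) (1.81 ± 0.21, edgeR adjusted p = 4.78e-05) and Sucla2 at 0.62 ± 0.18, a call also lost in 7 of those fits. In fatty acid oxidation 3 of 23 were higher and 1, Hadha, lower. Mitochondrial biogenesis and dynamics had 1 of 24 higher, the fission adaptor Fis1, and the coactivator Ppargc1a did not pass (0.81 ± 1.56). The energy sensing list had 3 of 22 higher, among them the mTORC1 activator Rheb and the glucose-responsive Txnip. Ckb, the brain-type creatine kinase, was also higher, though not in 7 of the 14 fits that left 1 library out.

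Nuclear subunits of the respiratory chain and ATP synthase were higher together. Of 76 listed genes 42 were higher and none lower, against 5.33% of all genes higher. They are called subunits here, though the lists also hold some that are not, such as cytochrome c and the ATP synthase inhibitor Atpif1. Their median was 0.72, 72 had a positive value, and in 34 every library 10 to 24 lay above every library 1 to 9. By complex, 21 of 37 subunits of complex I, which oxidises NADH, 4 of 10 of complex III with cytochrome c, 7 of 12 of complex IV, which reduces oxygen, and 10 of 17 of ATP synthase were higher. The accessory subunit Ndufb6 of complex I measured a median of 56.5 CPM (range 50.5 to 68.6) in libraries 1 to 9 and a median of 117 CPM (range 95.0 to 139) in libraries 10 to 24, all above (0.99 ± 0.15, edgeR adjusted p = 0.000393). Uqcr11 of complex III rose from a median of 32.7 CPM (range 20.7 to 42.1) to a median of 91.6 CPM (range 75.3 to 124) (1.54 ± 0.20, edgeR adjusted p = 0.000103). Cox6c of complex IV rose from a median of 177 CPM (range 156 to 200.1) to a median of 477 CPM (range 340.4 to 847) (1.43 ± 0.18, edgeR adjusted p = 8.13e-05). Atp5j, a coupling subunit of ATP synthase, rose from a median of 234 CPM (range 203 to 268) to a median of 489.7 CPM (range 398 to 622) (1.05 ± 0.13, edgeR adjusted p = 6.5e-05). Each of these 4 genes had separate ranges. The subunits with negative values were Ndufs1, Cycs, Atp5a1 and Atp5g2, none of which passed. Of the 13 mitochondrially encoded subunits 2 were higher and none lower, ND2 and CYTB at 0.62 ± 0.14 and 0.58 ± 0.17, while COX1 at 0.12 ± 0.19 and ND1 at -0.43 ± 0.19 did not pass. These calls and their direction depended on the fit. CYTB was lost in 8 of the 14 fits that left 1 library out (edgeR adjusted p up to 0.0825). With the epithelial covariate none was higher and ND1 and ND5 were lower, and without libraries 18, 19 and 20, or in control mice alone, ND2 was higher and ND1 and ND5 lower. With the transcript length trend removed, as described below, none was higher and ND1 (-1.01), ND5 and ND6 were lower.

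Ribosomal protein genes that passed were higher in libraries 10 to 24. Of 79 cytosolic ribosomal proteins 21 were higher and none lower, with a median of 0.33. Rpl4 measured a median of 1313 CPM (range 1217 to 1517) and a median of 2471 CPM (range 1779 to 2738) with every library 10 to 24 above (0.81 ± 0.11, edgeR adjusted p = 0.000181), and Rps20 changed by 1.19 ± 0.15. Many ribosomal protein genes have processed pseudogenes, so their counts are uncertain where reads could map to a copy. Of 76 mitochondrial ribosomal proteins 12 were higher, none lower and the median was 0.38, Mrps34 being at 1.29 ± 0.26.

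The respiratory and ribosomal genes have short transcripts, and the set difference ran with transcript length across all genes. Among the 14214 tested genes with a length (81.1%), taken as the longest protein-coding transcript, higher genes had a median of 1698 bases, lower genes 3679 and all genes 3059. Of genes with transcripts of up to 1000 bases 19.7% were higher and 0.775% lower, and the shares turned to 2.76% and 8.97% over 6000 bases. Respiratory subunits had a median length of 870.0 bases, cytosolic ribosomal proteins 914 and mitochondrial ribosomal proteins 1302, against 2616 for immediate early genes. Within genes of up to 1000 bases, 28 of 44 respiratory subunits (63.6%) were higher with a median of 0.77, against a median of 0.63 for all genes of that length. From over 1000 to 2000 bases 12 of 23 (52.2%) were higher with a median of 0.66, against 10.2% and 0.32 for all genes. Cytosolic ribosomal proteins of up to 1000 bases had 26.1% higher and a median of 0.37, under the median of all genes of that length.

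**Figure D3:**
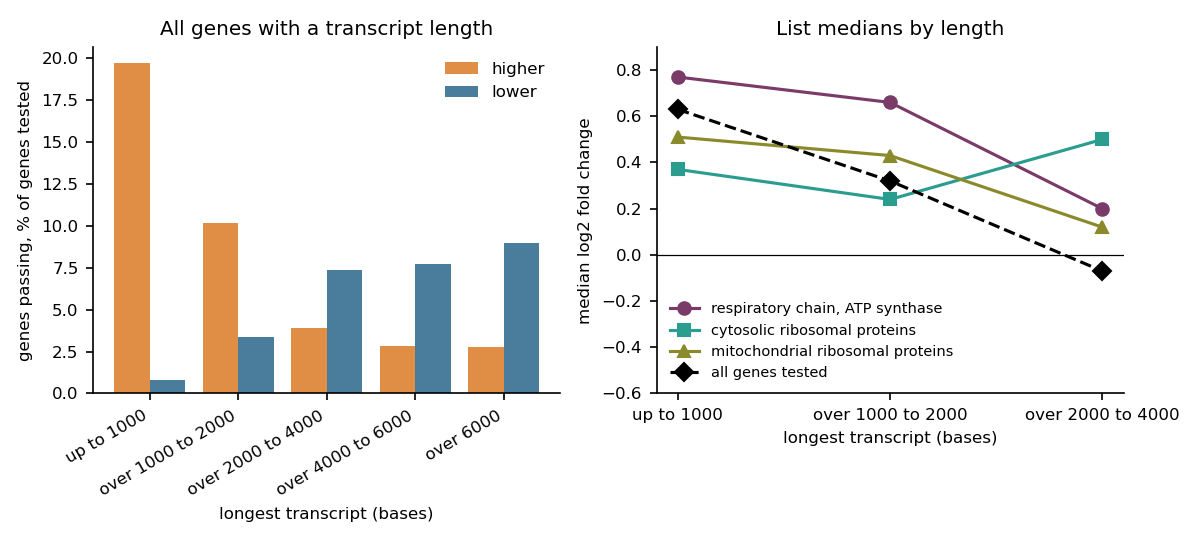
Left, share of all tested genes with a transcript length that passed as higher or lower in FRC libraries 10 to 24, by length of the longest protein-coding transcript in bases. Right, median log2 fold change of respiratory chain and ATP synthase subunits (44, 23 and 7 genes from short to long), cytosolic ribosomal proteins (46, 27 and 5) and mitochondrial ribosomal proteins (24, 29 and 14), with all genes dashed and falling from 0.63 to -0.07.

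When each library's trend on transcript length was removed, an alternative chosen after the data were seen, 9 of 76 respiratory subunits passed as higher in place of 42 and their median was 0.08. The 9 were Ndufab1, Ndufb2, Ndufv3, Uqcrq, Uqcr11, Cox6c, Atp5b, Atp5c1 and Atp5j. Of these, Ndufab1 went up from 1.31 to 1.40 and Ndufb2 from 1.28 to 1.35, while the others went down. Rps20 also went up, from 1.19 to 1.30. The trend was read at the longest protein-coding transcript of each gene, and which transcript the cells used was not tested. Cytosolic ribosomal proteins then had 5 higher and 7 lower with a median of -0.21, and mitochondrial ribosomal proteins 1 higher and 2 lower. Over all genes 544 were higher and 1033 lower. The counts on the lower side were then 15 immediate early genes, 7 chaperone genes, 10 NF-kappaB genes, 6 endoplasmic reticulum genes and 5 sterol genes, with Hk2 at -3.81. Whether the length trend arose in the cells or in library preparation was not tested.

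**Figure D4:**
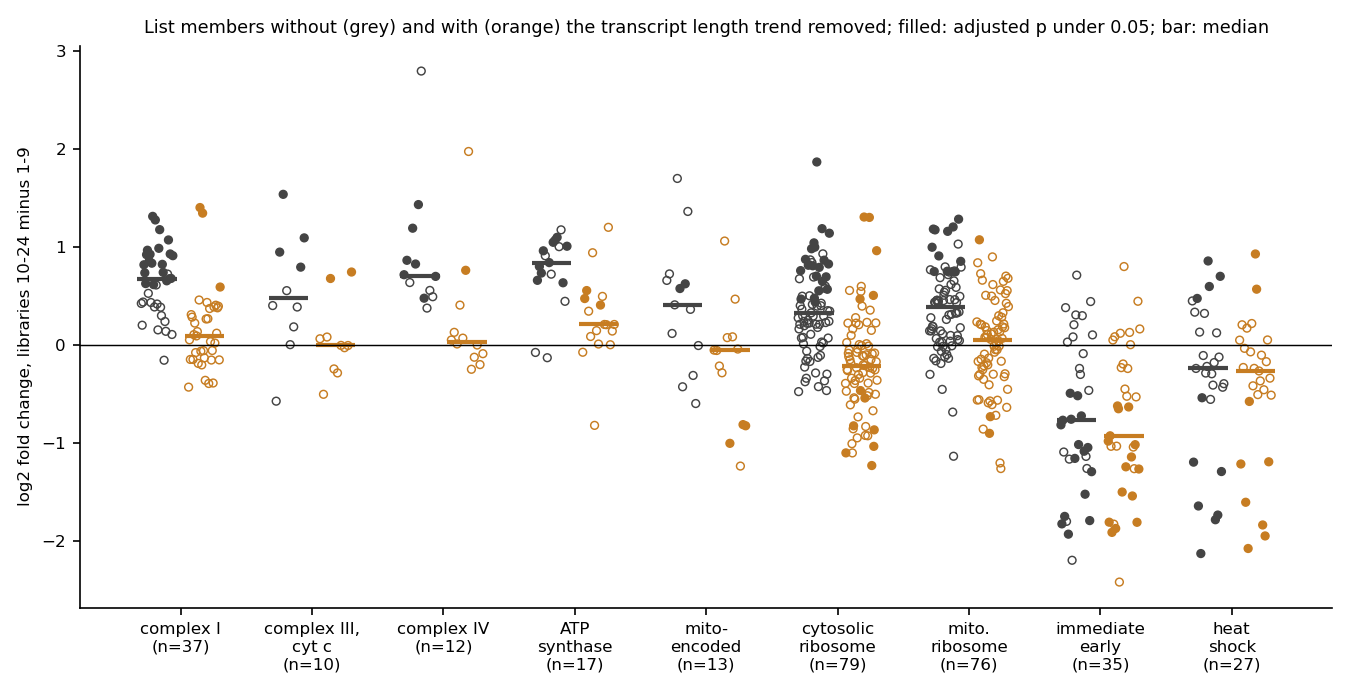
Log2 fold change of each member of 9 lists in FRC libraries 10 to 24 minus 1 to 9, as tested (grey) and with the transcript length trend removed (orange), filled where the adjusted p was under 0.05 and with a bar at the median. The respiratory medians move from between 0.48 and 0.84 to between -0.01 and 0.21, and the immediate early median goes from -0.77 to -0.93.

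The respiratory count also varied with the libraries used. In control mice alone 31 of 76 subunits were higher, against 3.38% of all genes, and the median was 0.92. In PEG mice alone 1 was higher, against 0.18% of all genes, and the median was 0.59. No subunit differed in its set change between PEG and control mice at an adjusted p under 0.05 in edgeR. Without libraries 18, 19 and 20, 30 were higher, and with the epithelial covariate 26 were higher. Libraries 10 to 13 alone against 1 to 9 gave 17 higher and libraries 18 to 21 alone gave 35.

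The genes of smallest p outside the lists gave the scale of the contrast. On the lower side, Pxdn, a peroxidase that crosslinks basement membrane collagen, fell from a median of 1358 CPM (range 1103 to 1694) to a median of 266 CPM (range 143 to 324) (-2.52 ± 0.17, edgeR adjusted p = 1.87e-07). Abcg1, a sterol exporter, fell from a median of 296 CPM (range 104 to 437) to a median of 11.2 CPM (range 2.24 to 19.3) (-4.79 ± 0.34, edgeR adjusted p = 3.06e-07). Sema4d, a semaphorin, was at -3.67 ± 0.25, Itpripl1 at -3.98 ± 0.27 and Cdv3 at -2.24 ± 0.17. On the higher side, Tmsb4x, which binds actin monomers, rose from a median of 375 CPM (range 341 to 446) to a median of 1084 CPM (range 792 to 1543) (1.45 ± 0.14, edgeR adjusted p = 7.75e-06). Dek, a chromatin protein, was at 2.08 ± 0.21, the tropomyosin Tpm2 at 1.48 ± 0.15, the lipid phosphatase Plpp3 at 1.49 ± 0.15, Plac8 at 1.16 ± 0.11, the dynein light chain Dynll1 at 1.42 ± 0.15, the protease Pappa at 2.03 ± 0.23 and 2610001J05Rik at 2.06 ± 0.20. For all of these named genes the ranges of the sets did not overlap.

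The HEV libraries, which the FRC fit did not use but which share its split by library number, gave the same contrast with 3 libraries (7, 8 and 9) against 7. Of 18691 genes, 113 were higher (0.605%) and 267 lower (1.43%) in libraries 10 to 24. The labels used here do not say whether FRC and HEV libraries came from the same mice. The FRC calls mostly kept their sign there. Of 889 FRC-higher genes tested in HEV, 809 (91.0%) were positive, where 55.5% of all HEV genes were, and of 970 FRC-lower genes 878 (90.5%) were negative, where 44.5% of all were. Both fits called 51 genes higher, 5.5% of the FRC list and 45.1% of the HEV list, and 183 lower, 18.6% of the FRC list and 68.5% of the HEV list. Btg2 changed by -1.16 ± 0.19 in HEV (edgeR adjusted p = 0.0071), Hspa8 by -1.08 ± 0.20 (edgeR adjusted p = 0.0158) and Dnajb1 by -1.09 ± 0.22 (edgeR adjusted p = 0.0249). Of the 76 respiratory subunits 72 were positive in HEV with a median of 0.61, and 3 passed. Of 35 immediate early genes 6 were lower and 2 higher in HEV. The count of HEV calls varied with the libraries used. Without library 7, the only PEG library of its set, 11 of 16351 genes passed. With treatment in the model, that fit compares the sets in control libraries only. Its low count therefore cannot show that the calls came from library 7. Without library 9, 14, 17, 23 or 24 the count fell to between 160.0 and 252.

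Few genes differed in the contrast between the cell types. The difference passed for 46 of 22699 genes (0.203%), higher in HEV for 34 (0.15%) and lower for 12 (0.0529%). Fos was lower in FRC and at 0.56 ± 0.17 in HEV, where it did not pass, and the difference of HEV minus FRC was 1.08 ± 0.19 (edgeR adjusted p = 0.00799). Dnaja1 was at -0.40 ± 0.21 in HEV with a difference of 1.26 ± 0.26 (edgeR adjusted p = 0.0334), and Abcg1 was at -1.32 ± 0.26 in HEV, with a difference of 3.49 ± 0.51 (edgeR adjusted p = 0.00141). Ang, a secreted ribonuclease, fell more in HEV, at -6.25 ± 0.35 against -2.41 ± 0.23 in FRC (edgeR adjusted p of the difference = 3e-05). Egr1, Jun and Atf3 stood at 0.46 ± 0.16, 0.04 ± 0.20 and 0.25 ± 0.25 in HEV and did not pass there.

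**Figure D5:**
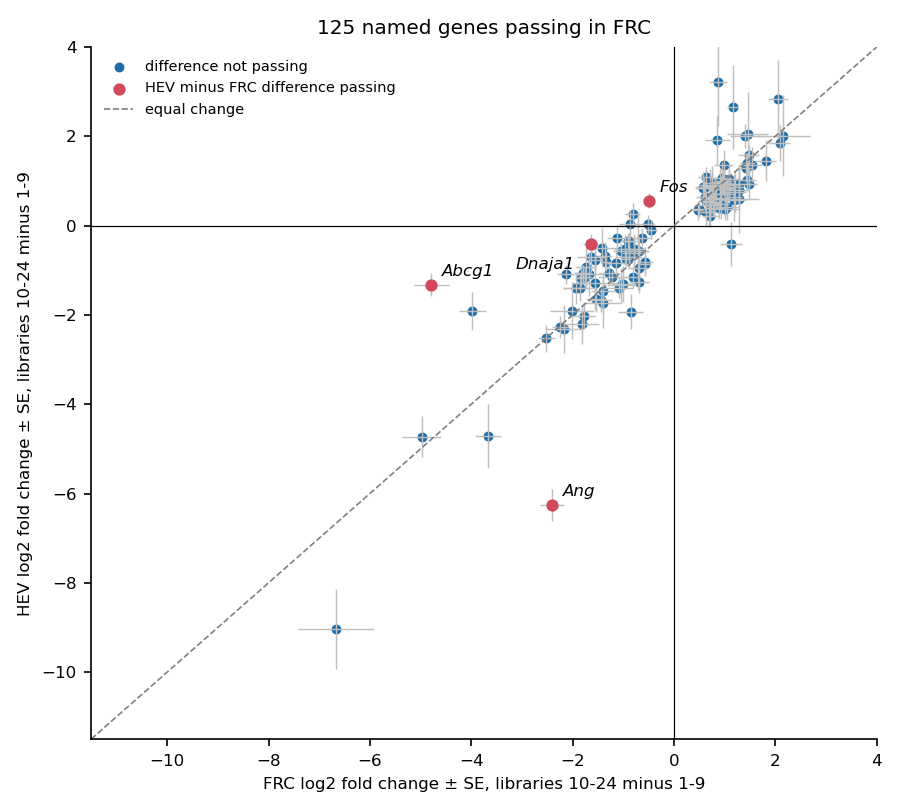
Log2 fold change ± SE of libraries 10 to 24 minus 1 to 9 in FRC (x axis, 14 libraries) and HEV (y axis, 10 libraries) for 125 named genes that passed in FRC and had an HEV standard error under 1, with equal change dashed. In 120 of them the sign is the same, and 4 genes whose difference between cell types passed are in red. Before the limit on the standard error there were 137 genes. The limit left out Cryab, whose difference between cell types also passed (5.69, HEV minus FRC). Some named genes were chosen for a small p in the HEV contrast, so the count of equal signs is not independent of HEV.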

How the data were processed

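RNA-seq of 24 libraries was used, each from 1000 cells sorted from 1 mouse; 14 FRC libraries enter the main comparison. Per the labels' protocols, cDNA was made by template switching and tagmented (Nextera), low-quality and ribosomal RNA reads were removed, and uniquely mapped reads were kept. The submitters' processing notes name GSNAP and mm9, whereas the labels' protocols name a human build, so no coordinate of the files is printed. The authors deposited read counts per gene, and RPKM values beside them, which were used here only to check that counts and RPKM gave the same scale. Whether reads were counted by strand is not given in the sources used here. Entrez identifiers were matched to RefSeq names (GRCm38.p6) for 85.0% of gene models, holding 97.3% of reads; gene models without a symbol stayed in the fits.

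Counts were tested with edgeR 4.0.16 in R 4.3.3 (TMM, a count minimum of 10 in filterByExpr, robust glmQLFit and glmQLFTest, treatment as covariate), with Benjamini-Hochberg adjustment over all genes tested and a threshold of 0.05. The FRC set contrast, its interaction with treatment and the removal of the length trend were run on simulated counts with known fold changes. The other fits and tools were not. CPM values are counts scaled to 1000000 reads in genes. Single values per library were compared by exact permutation of the set within treatment. Alternatives were DESeq2 1.42.0, limma 3.58.1 (voom), other scalings, filters and covariates, subsets of libraries and each library left out. Transcript lengths are those of GENCODE M21.

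The members and the 29 lists of handling, stress and energy genes, like the 13 marker lists, were chosen with earlier results of these data known, as was the split by library number. Named genes include the 8 of smallest p in each direction with a mean CPM of 5 or more. They also include the 4 of smallest p in each direction among the passing members of every list. Genes of smallest p in the HEV contrast and in the comparison within FRC libraries 10 to 24 were named as well. So were those of smallest p for the difference of the set change between PEG and control mice. A set of stress and clock genes was named whatever their values. Other list members, those with matched promoter letters and genes with almost no reads in libraries 10 to 24 were named after their values were seen. Of the listed genes 4 had no identifier in the files. Some members of the lists are not reported here by name.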

Additional observations from a re-analysis of the deposited data

Results flagged for a closer look

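The change between the sets differed between HEV and FRC libraries, by the test of the difference itself (HEV minus FRC, edgeR, adjusted over all genes), for Abcg1 (3.49), Cryab (5.69), Dnaja1 (1.26), Fos (1.08), Ranbp9 (3.67), Ang (-3.82) and Rnase4 (-3.24). It differed between PEG and control FRC libraries for Pex10 (-8.24, PEG minus control). Ang and Rnase4 overlap in the genome, so their reads may not be fully separable.

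A single library stood far from the rest of its group of 4 in 29 of 354 groups of values, where chance gives about 1 in 20. Among PEG libraries 10 to 24, library 11 was high for Tpm2 (718 CPM), Dynll1 (169 CPM), Bst2 (289 CPM), Atg3 (366 CPM), Hspa1a (1260 CPM) and Per1 (70.5 CPM) and low for Ang (87.4 CPM) and the first base quality (36.0). Library 18 was high for Wnk1 (124 CPM), Mdh1 (671 CPM), Uqcrq (329 CPM), Cox8a (436 CPM) and Pglyrp1 (142 CPM), and low for Pxdn (233 CPM), Rheb (229 CPM) and the erythrocyte level (0.0555 log2(CPM + 1)). Library 19 was high for Sall3 (0.316 CPM) and low for Sars (110 CPM). Library 10 was high for Ubash3b (23.6 CPM) and the B cell level (1.55). Among control libraries 10 to 24, library 21 was high for 2610001J05Rik (244 CPM) and ND2 (643 CPM), library 13 for Sall3 (0.0554 CPM), Norad (92.2 CPM) and the plasma cell level (2.55), and library 20 for Pglyrp1 (106 CPM). Library 12 was low for Meg3 (126 CPM), and library 20 for Gpi1 (39.1 CPM) and Etfb (194 CPM). The values of Sall3 rest on very few reads against 0 and say nothing of those libraries. The first base quality of library 11 lay next to 36.1 in the rest of its group, a step in the last digit that the labels give. These values are counted among the 29.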

How the results depend on the processing

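The set contrast called 935 genes higher and 983 lower. It called 1694 higher with DESeq2. With the epithelial covariate it called 492 and 553, with 1 i5 index alone (libraries 1 to 4, 10 to 12 and 18 to 20) 230.0 and 410.0, in controls 526 and 579, in PEG mice 28 and 104, with libraries 10 to 13 alone 290.0 and 414, with 18 to 21 alone 552 and 572, without libraries 18, 19 and 20 471 and 611, and with a log2 change over 1 as well 535 and 604. Removing the length trend left 544 higher and removing length and GC trends 578. Leaving out each library gave 667 to 870.0 higher and 819 to 1023 lower. Immediate early genes lower (16) were 9 in controls, and 14 to 18 with each library left out. Chaperones lower (7) were 4 in PEG mice, and 6 to 8. NF-kappaB genes lower (8) were 5 with the epithelial covariate, 1 i5 index, controls, PEG mice or libraries 18 to 21, and 7 to 9. Respiratory subunits higher (42) were 26 with the epithelial covariate, 14 with 1 i5 index, 1 in PEG mice, 17 with libraries 10 to 13 and 9 with either trend removal, and 36 to 46. Cytosolic ribosomal proteins higher (21) were 6 with 1 i5 index, 1 in PEG mice, 9 with libraries 10 to 13 and 5 with either trend removal, and 18 to 21. The treatment interaction (1 gene) gave 310.0 with DESeq2 and 0 to 4 with libraries left out. Libraries 18 to 21 against 10 to 13 (2 genes) gave 308 with DESeq2, 356 without a filter and 0 to 24. HEV (380.0) gave 2086 with DESeq2, 660.0 without a filter and 11 to 385. The HEV minus FRC difference (34 higher, 12 lower) gave 445 and 258 with DESeq2, and 23 to 75 and 9 to 21. The trend removals and the fit without libraries 18, 19 and 20 were chosen after the data were seen. No named gene that had passed changed sign, except 4 and 7 under the trend removals. Log2 values of opposite sign to the reported ones are listed by setting. With the length trend removed they were Cryab -0.035, Sod1 -0.017, Uqcrh -0.0055, Cox8a -0.089 and COX1 -0.22. With the length and GC trends removed they were Cryab -0.056, Sod1 -0.015, Bax -0.12, Map1lc3a -0.22, Cox4i1 -0.0058, Cox8a -0.16, Rps15 -0.24 and COX1 -0.14. With 1 i5 index alone they were Egr1 -0.18, Vegfa -0.091 and Malat1 -0.14. With PEG mice alone they were Egr1 -0.40, Vegfa -0.66, Slc2a1 -0.046, Malat1 -0.21, Pex10 -0.028 and Rnase4 0.20. With controls alone they were Hspa1b 0.43, Ddit3 0.13, Ppargc1a -0.81 and COX1 -0.21. With the epithelial covariate they were Vegfa -0.065, Hmox1 0.086, Tsc22d3 0.21, COX1 -0.20 and Pglyrp1 -0.35. With libraries 10 to 13 alone they were Tsc22d3 0.10 and COX1 -0.10. With libraries 18, 19 and 20 left out they were Tsc22d3 0.035 and COX1 -0.11. With each library left out they ran Egr1 -0.063 to 0.13, Ddit3 -0.13 to 0.015, Vegfa -0.015 to 0.54, Cdkn1a -0.27 to 0.0695 and Malat1 -0.045 to 0.15. The share of reads in the 100 highest genes differed by -0.823 percentage points (exact permutation adjusted p = 0.0257 within treatment and 0.0536 over all 14 libraries, -0.932 to -0.71 with each left out). The difference in reads per library ran from -803214 to 502942 and that in clipped share from -0.916 to 0.0842 percentage points. The cause of these changes was not tested. No paired analysis was possible because every library number occurs once and no label ties mice of the sets together. With the recurring index pair as a block in place of treatment, also chosen after the data were seen, the contrast called 589 genes higher and 770.0 lower, and 30 of 138 named genes no longer passed. At 3 to 4 mice per treatment and set, small changes are not detectable, and p-values rest on the spread between mice.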

Other observations

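A few genes were read in every library 1 to 9 and almost absent from FRC libraries 10 to 24. Sall3, a zinc finger factor of development, had 8596 reads in the 6 FRC libraries 1 to 9, at 29.3 to 140.5 CPM, and 6 reads in the 8 FRC libraries 10 to 24, a ratio of 1888 (95% counting interval 867 to 5145). The HEV libraries 7, 8 and 9 held 85.1, 71.6 and 186 CPM of it, and no HEV library 10 to 24 exceeded 1.45 CPM. Tmc7, a channel-like membrane protein, gave 5768 against 6 FRC reads and Cd180, a toll-like receptor relative of B cells and macrophages, 2280 against 11. In HEV libraries 10 to 24 these were low but present, Tmc7 at up to 3.75 CPM and Cd180 at up to 2.91 CPM, against at least 33.5 and 34.4 CPM in HEV libraries 7, 8 and 9. The pseudogene Gm15928 had 4358 reads against 0, which is at least 1914-fold higher in libraries 1 to 9 with 3 reads over the group as the floor. Intervals and floors cover counting error only.

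Itgam, an integrin of myeloid cells, was at 8.34 to 34.7 CPM in FRC libraries 1 to 9 and at most 0.758 CPM in FRC libraries 10 to 24, opposite to Ptprc, which myeloid cells also carry and which stood at 0 in 3 of the 6 libraries 1 to 9.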
